A study of Mus musculus with 47 samples.

Results

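The change in gene expression from mouse embryonic stem cells (ESC) to neural progenitor cultures (NPC) was measured in a line whose JARID2 protein can be destroyed on demand, with the destruction agent present and absent. The libraries were taken by line from the labels: 12 of the 47 libraries of the study came from this line, in 4 groups of 3 biological replicates. All groups derived from C57BL/6 ESC, and in all of them JARID2 carried an auxin-inducible degron and the cells expressed Tir1, a plant F-box protein that recruits degron-tagged proteins for destruction when auxin binds. The first pair of groups was NPC kept in auxin for 5 days and ESC given auxin for 12 hours, with 50 µM indole-3-acetic acid as the auxin in both. The second pair was NPC and ESC of the same line without auxin. ESC grew in N2B27 medium with 100 U/ml LIF, 3 µM of the GSK3 inhibitor CHIR99021 and 1 µM of the MEK inhibitor PD0325901. For NPC the cells received bFGF (10 ng/ml, 72 hours) followed by SAG, an agonist of Hedgehog signalling (500 nM, 48 hours). The lengths of auxin treatment therefore differ between the stages, and a difference between the pairs joins a 5-day effect in NPC with a 12-hour effect in ESC. Whether the line is 1 clone is not given in the sources used here. An untagged line with Tir1 had 12 libraries in the same 4 conditions, and degron lines for SUZ12 and MTF2 had 11 and 12.

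JARID2 is an accessory subunit of Polycomb repressive complex PRC2, the enzyme that methylates histone H3 at developmental genes and helps to keep them silent. It binds DNA and nucleosomes, stimulates the enzyme, and is much more abundant in embryonic stem cells than in most differentiated cells. When stem cells become neural, the pluripotency network is shut down, a transient formative state is passed, progenitor factors come on, Hedgehog signalling gives ventral identities, and Notch signalling and proneural factors then decide which progenitors become neurons.

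Expression was measured by strand-specific sequencing of polyadenylated RNA and is given in TPM (transcripts per 1000000) as the authors deposited it. Whole reads recovered from the TPM steps gave 3.76 to 6.23 M reads (M, 1000000) per library of the JARID2 line, and 13133 to 14125 genes reached 1 TPM. The cells matched their stage labels: 6 ESC markers summed to 177 to 194 TPM in NPC with auxin against 3350 to 3410 TPM in ESC with auxin, and to 62.8 to 75.2 TPM in untreated NPC against 3250 to 3400 TPM in untreated ESC. NPC markers ran the other way, with sums of 639 to 705 against 41.9 to 49.2 TPM with auxin and 915 to 1130 against 43.4 to 52.1 TPM untreated. Titles of the NPC libraries of this line read day 0, in conflict with the remaining labels (NPC, 5 days of auxin), and these markers stood with the remaining labels. Jarid2 RNA was present in every library and is no measure of the protein, whose depletion was not measured in the data used here: it had 65, 53.4 and 51.4 TPM in NPC with auxin against 101, 88.6 and 93.9 TPM in ESC with auxin, and 38.5, 36.3 and 32 TPM in untreated NPC against 100, 93.3 and 93.4 TPM in untreated ESC. In bulk RNA, fewer cells of a type and less RNA per cell cannot be told apart.

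With auxin present, most of the transcriptome still moved between the stages, and moved as it did without auxin. Of 17760 genes tested, 12367 (69.6%) differed in limma at an adjusted p under 0.05: 7877 (44.4%) were called higher and 4490 (25.3%) lower in NPC than in ESC with auxin. Without auxin 13030 (73.4%) differed, of which 8357 (47.1%) were called higher and 4673 (26.3%) lower. The calls shared by both pairs were 7237 higher genes, 91.9% of those with auxin and 86.6% of those untreated, and 3905 lower genes, 87.0% and 83.6%. The pairs have no library in common, and the log2 fold changes had a Pearson correlation of 0.933 across genes, which are not replicates. The excess of higher over lower calls depends on TPM being a share of each library: median-of-ratios scaling shifted the median of all genes by -0.216 with auxin and by -0.282 untreated, and left 6370 higher and 6094 lower calls with auxin and 6620 and 6455 untreated.

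**Figure D1:**
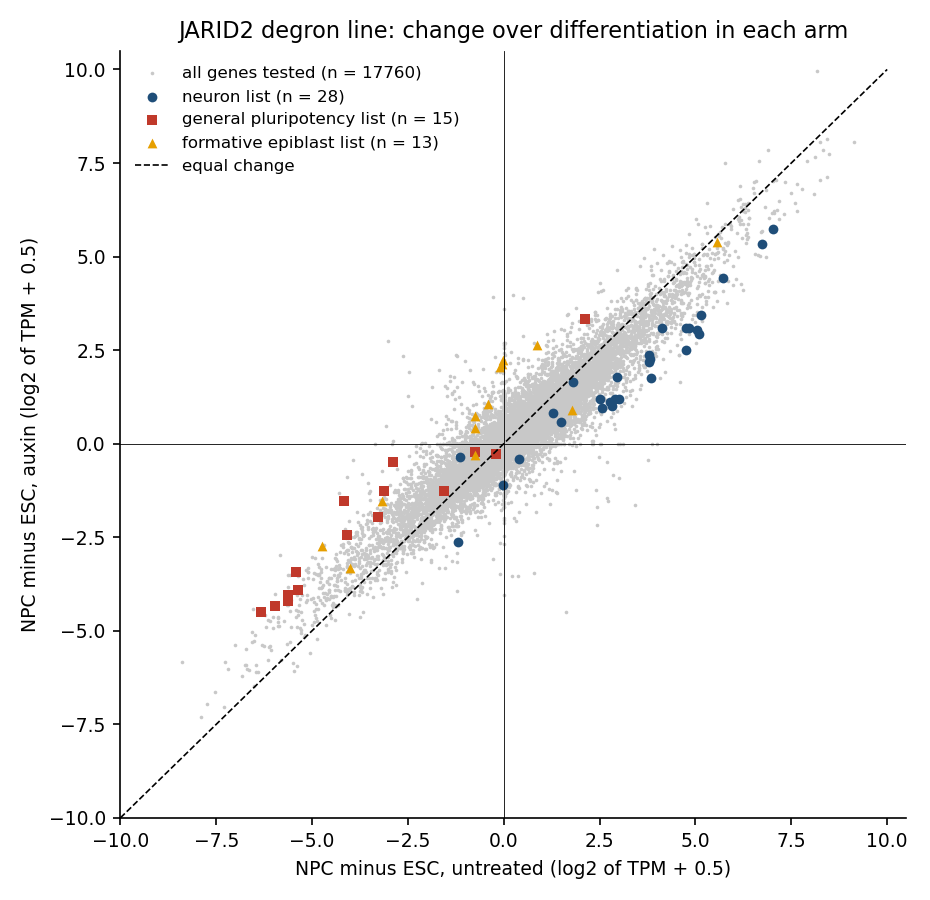
Log2 fold change of TPM + 0.5 between NPC and ESC of the JARID2 line for each of 17760 genes, with auxin on the vertical axis and untreated on the horizontal axis; colours and shapes mark the neuron (28), general pluripotency (15) and formative epiblast (13) lists, and the dashed line marks equal change. Most genes follow the line, most neuron genes lie below it, and most general pluripotency and formative genes above it.

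Among the 10 largest rises with auxin were those of the ventral neural tube factors Nkx6-1 and Foxa2. Nkx6-1, a homeobox factor of ventral progenitors, had 201, 178 and 178 TPM in NPC with auxin against 0.853, 0 and 0 TPM in ESC with auxin, and 474, 374 and 336 TPM in untreated NPC against 0.838, 0 and 0 TPM in untreated ESC. Foxa2, a factor of the floor plate, had 147, 151 and 145 TPM in NPC with auxin and at most 0.564 TPM in ESC with auxin, beside 215, 218 and 209 TPM in untreated NPC and at most 0.441 TPM in untreated ESC. Stages did not overlap for either gene, and both reached lower levels in NPC with auxin than in untreated NPC. The rise was 8.06 ± 0.33 (log2, SE) with auxin and 9.14 ± 0.33 untreated for Nkx6-1, and the difference of -1.08 ± 0.46 was not called (adjusted p 0.119). For Foxa2 the rises were 7.65 and 8.13, and the difference of -0.48 was not called either (adjusted p 0.274).

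H19, an imprinted noncoding RNA, rose furthest of all with auxin. It had 1060, 1030 and 929 TPM in NPC with auxin and under 1 TPM in all ESC with auxin, against 396, 449 and 382 TPM in untreated NPC. Every NPC library with auxin was above every untreated one. The difference between its rises was 1.78 ± 0.43 (adjusted p 0.00383), a call that was lost with a pseudocount of 0.1. The same difference was 0.17 in the untagged line, and the part beyond it, 1.61, was not called (adjusted p 0.173). Others of the 10 largest rises were Ednrb, the endothelin receptor (7.55), Igfbp5 (7.73), Thbs1 (7.85), Igf2 (7.56), and the smooth muscle genes Tagln and Acta2 (8.14 and 7.85). Untreated, the rises were 7.90 for Ednrb, 8.49 for Igfbp5, 6.67 for Igf2 and 8.32 for Acta2. The 3 muscle markers summed to 12.5 to 18.6 TPM in NPC with auxin and to 4.3 to 6.65 TPM in untreated NPC, and Myod1 and Tnnt2 among them were under 1 TPM in both. The part of muscle cells was not tested.

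The 10 largest falls with auxin were those of Cdx1, Tdh, Hal, Calcoco2, Cpt1a, Accsl, Spic, Obox6, Aqp3 and Notum. Tdh, the threonine dehydrogenase on which mouse stem cells depend, had 9.51, 6.25 and 9.01 TPM in NPC with auxin against 1070, 1060 and 1070 TPM in ESC with auxin. Without auxin it had 6.37, 3.61 and 4.93 TPM in NPC against 1130, 1120 and 1160 TPM in ESC. NPC were far below ESC in both pairs, with falls of -6.95 ± 0.24 and -7.73 ± 0.24 that were not called different (0.78, adjusted p 0.131). The homeobox gene Cdx1, a WNT target, fell by 7.30 with auxin and by 7.91 untreated. Hal, histidine ammonia lyase, fell by 6.48 and 6.52, and Accsl by 6.10 and 6.41.

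Fewer genes switched fully on or off with auxin. A gene was counted as switched on when it was under 1 TPM in all 3 ESC and at 5 TPM or more in all 3 NPC libraries. By that rule 348 genes came on with auxin and 454 untreated, of which 277 did so in both pairs, 79.6% and 61.0%. Going off in the same sense were 114 genes with auxin and 196 untreated, 85 of them in both, 74.6% and 43.4%. Crossing a level in 1 pair only did not mean that the gene was unmoved in the other: 173 of the 177 genes that came on in the untreated pair alone were still called higher with auxin, and all 111 that went off in the untreated pair alone were still called lower. Of those 177, 100 rose less with auxin and 0 more, against 9.16% and 5.89% of all genes called in these directions. Of the 111, 40 fell less with auxin and 0 more, against 5.89% and 9.16%. Taking genes that crossed the levels in the untreated pair alone favours a smaller change with auxin. With auxin alone 71 genes came on, 68 of them called higher untreated too. Their difference was positive for 9 and negative for 6. Another 29 went off with auxin alone, 27 of them called lower untreated too, with 0 positive and 3 negative differences.

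Genes that came on untreated but did not cross both levels with auxin included neuronal genes. Scg2, a secretogranin of neurosecretory vesicles, had 4.06, 3.08 and 4.49 TPM in NPC with auxin against 20, 15.3 and 20.4 TPM in untreated NPC, and at most 0.239 TPM in ESC of either pair. Smpd3, a neutral sphingomyelinase, had 2.86, 2.35 and 3.28 TPM against 14, 11.1 and 11.4 TPM in these NPC groups, although its difference was no longer called on recovered reads. NPC with auxin stood above all ESC and below all untreated NPC for both genes. Rex2, a zinc finger gene, went off in the untreated pair alone: it had 2.87, 3.19 and 1.56 TPM in NPC with auxin and 26.1 to 37.8 TPM in ESC with auxin, against 0.724, 0.392 and 0.244 TPM in untreated NPC. Its difference was 1.49 ± 0.28 (adjusted p 0.000247).

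**Figure D2:**
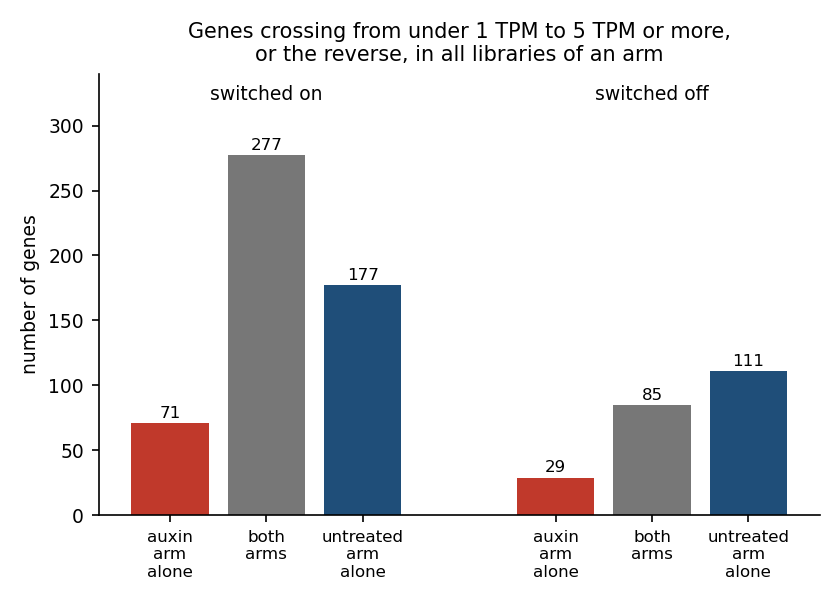
Number of genes switched on in each pair of groups (arm) of the JARID2 line (under 1 TPM in every ESC library and at least 5 TPM in every NPC library) or off (the reverse), with auxin alone, in both pairs and untreated alone. More genes crossed these levels untreated alone (177 on, 111 off) than with auxin alone (71 on, 29 off).

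A set of genes chosen without the JARID2 line showed the size of the change. The 300 genes with the largest rise in untreated cells of the untagged line had a median rise of 4.33 with auxin and 5.10 untreated in the JARID2 line, on the log2 scale. In the untagged line itself it was 5.44 with auxin and 5.59 untreated. All 300 were called higher in both pairs of the JARID2 line, and the difference was called smaller for 159 of them and larger for 3. The 300 genes with the largest fall had medians of -3.44 with auxin and -4.17 untreated in the JARID2 line, against -4.82 and -4.83 in the untagged line. Of these, 298 were called lower with auxin and 160 fell less by the test of the difference. Nearly all of these genes kept the direction of differentiation with auxin, and 266 of the rising and 282 of the falling genes changed less than untreated. Untreated cells of the JARID2 line also had smaller medians than untagged cells, from which the genes were chosen.

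The difference between the pairs, taken as the NPC to ESC change with auxin minus the change untreated, was called for 2672 genes (15%), 1046 (5.89%) positive and 1626 (9.16%) negative. Counts of called differences in the gene lists below stand beside these shares. Of the 1626 negative genes 1467 rose untreated, and of the 1046 positive genes 769 fell untreated. These counts rest on the same untreated libraries on both sides, which favours them, and the genes chosen in the untagged line above do not have this limit. It lay mostly in NPC, where auxin against no auxin was called for 25.1% of all genes, and with the same sign for 2399 of the 2672, while the 12-hour effect in ESC was called with the matching sign for 20. In ESC, auxin against no auxin was called for 31 genes (0.175%) in all. A fit to the 12 libraries of the line alone called 1449 differences, 689 positive and 760 negative, and voom on recovered reads called 1377 positive and 802 negative ones, so that the balance of directions turned. In the untagged line the same difference was called for 1 gene (0.00563%; 1331 at an unadjusted p under 0.05). The balance of positive and negative calls turned with the scaling, at 1471 positive and 1268 negative after median-of-ratios scaling, with 2309 genes called under both. Opposite changes in the pairs were called for 65 genes, 35 of them lower and 30 higher with auxin, and 18 of the 65 were so called after scaling, Dnmt3b, Des and Sncg among them. Sncg, which encodes gamma-synuclein of neurons, had 1.25, 2.09 and 1.83 TPM in NPC with auxin against 2.11, 6.48 and 5.48 TPM in ESC with auxin, and 8.47, 7.85 and 11.3 TPM in untreated NPC against 2.76, 5.21 and 5 TPM in untreated ESC.

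The 250 bases before the start of 4 named genes are given below. They are the 2 positive and the 2 negative differences of largest size among named genes that were also called beyond the untagged line, had a single RefSeq window and had no annotated gene on the same strand within it. Genes with larger differences exist. They are printed because PRC2 is known to gather at promoters rich in CG, and CG is in capitals. The sequences are from RefSeq on GRCm38.p6, read 5′ to 3′ on the gene's strand, which is the minus strand for all 4: Tdgf1 at chr9:110946159-110946408, Cldn4 at chr5:134946935-134947184, Grm2 at chr9:106656110-106656359 and Ube2ql1 at chr13:69739898-69740147.
Tdgf1: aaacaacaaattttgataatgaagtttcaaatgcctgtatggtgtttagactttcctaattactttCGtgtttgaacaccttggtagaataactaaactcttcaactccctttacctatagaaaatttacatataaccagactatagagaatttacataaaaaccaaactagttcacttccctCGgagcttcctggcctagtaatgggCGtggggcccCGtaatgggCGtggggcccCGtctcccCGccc
Cldn4: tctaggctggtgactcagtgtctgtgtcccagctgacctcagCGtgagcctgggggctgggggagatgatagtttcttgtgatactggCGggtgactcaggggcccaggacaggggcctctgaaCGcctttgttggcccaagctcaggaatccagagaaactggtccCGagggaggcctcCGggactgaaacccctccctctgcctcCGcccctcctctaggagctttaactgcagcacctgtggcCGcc
Grm2: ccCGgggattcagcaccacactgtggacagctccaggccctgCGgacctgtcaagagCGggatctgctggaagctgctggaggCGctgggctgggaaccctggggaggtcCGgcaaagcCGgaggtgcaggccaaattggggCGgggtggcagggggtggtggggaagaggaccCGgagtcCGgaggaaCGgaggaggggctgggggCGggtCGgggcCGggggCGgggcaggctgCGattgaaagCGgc
Ube2ql1: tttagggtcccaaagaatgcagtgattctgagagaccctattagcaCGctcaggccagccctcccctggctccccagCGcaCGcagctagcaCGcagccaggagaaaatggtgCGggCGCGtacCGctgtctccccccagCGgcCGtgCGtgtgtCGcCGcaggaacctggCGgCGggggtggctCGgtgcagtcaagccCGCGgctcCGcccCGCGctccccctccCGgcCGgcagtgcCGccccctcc

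The letters CG, which read the same on both strands, stood 7 times in the windows of Tdgf1 and Cldn4, 16 times in that of Grm2 and 24 times in that of Ube2ql1. Over 32851 RefSeq promoter windows of this length the median was 6, and 92.1% held at least 1. Windows with at least as many CG made up 46.3% of all for Tdgf1 and Cldn4, 25.4% for Grm2 and 12.0% for Ube2ql1. No comparison of CG content between called and uncalled genes was made, because too few of the tested genes (70.6%) matched a window, and binding of PRC2 was not measured here.

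Tdgf1, a NODAL co-receptor of stem cells and early embryos, had 20.9, 17.9 and 18.2 TPM in NPC with auxin against 462, 411 and 435 TPM in ESC with auxin. Untreated it had 6.53, 6.76 and 3.74 TPM in NPC against 494, 466 and 482 TPM in ESC. It fell in both pairs and stayed higher in NPC with auxin, without overlap, giving a difference of 1.84 ± 0.29 (adjusted p 2.01e-05). Cldn4, a tight junction protein, had 56.4, 67.1 and 51.5 TPM in NPC with auxin against 74.4, 77.9 and 72.6 TPM in ESC with auxin, and 17.8, 28 and 12.6 TPM in untreated NPC against 68, 81 and 60.3 TPM in untreated ESC. Its fall was called untreated (-1.88) and not with auxin (-0.37, adjusted p 0.0907), and the difference was 1.51 ± 0.27 (adjusted p 0.000134).

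Grm2, a metabotropic glutamate receptor of neurons, had 2.62, 2.31 and 2.15 TPM in NPC with auxin against 0.928, 1.25 and 0.671 TPM in ESC with auxin. In untreated NPC it had 15.7, 11.2 and 11.9 TPM against 0.304, 0.573 and 2.04 TPM in untreated ESC. Its difference was -2.36 ± 0.38 (adjusted p 2.04e-05). Ube2ql1, a ubiquitin-conjugating enzyme relative, had 4.96, 5.33 and 5.82 TPM in NPC with auxin against 4.03, 2.65 and 3.49 TPM in ESC with auxin, and 14.2, 14.6 and 15.8 TPM in untreated NPC against 2.07, 1.99 and 1.56 TPM in untreated ESC. NPC exceeded ESC in both pairs and the untreated pair was further apart, with a difference of -2.09 ± 0.17 (adjusted p 3.02e-11). It is also 1 of the 31 genes called between auxin and no auxin in ESC (0.70, adjusted p 0.00361).

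Pluripotency genes fell with auxin but by less than without. Of 15 genes of the naive state, all 15 fell in both pairs, with a median log2 fold change of -4.87 with auxin and -5.96 untreated, beside medians of 0.22 and 0.28 over all genes tested. The difference was positive for 8, negative for 1, and 0.94 in the median, where all genes had -0.05. Of 15 general pluripotency genes 13 fell and 1 rose with auxin and 14 fell and 1 rose untreated, with medians of -1.95 and -4.09, and the difference was positive for 14 and negative for 0 (median 1.60).

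Pou5f1, the central pluripotency factor, had 105, 99.1 and 97.1 TPM in NPC with auxin against 1640, 1640 and 1690 TPM in ESC with auxin. Without auxin it had 33.8, 39.1 and 30.4 TPM in NPC against 1760, 1680 and 1740 TPM in ESC. NPC with auxin were therefore far below ESC, and all of them above every untreated NPC library, while the ESC groups lay close together. The fall was -4.04 ± 0.08 with auxin and -5.63 ± 0.08 untreated, and the difference was 1.60 ± 0.11 (adjusted p 8.7e-14).

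Nanog, its partner in the network, had 29.5, 26.6 and 27.8 TPM in NPC with auxin against 796, 736 and 754 TPM in ESC with auxin, and 9.26, 10.9 and 9.51 TPM in untreated NPC against 724, 689 and 722 TPM in untreated ESC. The order of the groups matched that of Pou5f1, and the difference was 1.36 ± 0.22 (adjusted p 2.05e-05). Esrrb, a nuclear receptor of the naive state, had 25.4, 21.9 and 20.1 TPM in NPC with auxin against 5.23, 7.12 and 4.37 TPM in untreated NPC, and a difference of 1.95 ± 0.20 (adjusted p 7.21e-09). Klf2, a Kruppel-like factor, had 22.5, 21.7 and 20.9 TPM against 12.3, 10.9 and 9.67 TPM in these groups. Each stood higher with auxin in every NPC library. Tbx3, a T-box factor, was the naive gene with the negative difference (-0.84 ± 0.13, adjusted p 1.09e-05): it had 6.65, 4.84 and 5.97 TPM in NPC with auxin against 12.5, 9.13 and 11.2 TPM in untreated NPC.

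The largest difference of the general list was that of Utf1, a chromatin factor of stem cells. It had 127, 130 and 120 TPM in NPC with auxin against 354, 394 and 349 TPM in ESC with auxin, and 28.1, 38.3 and 25.2 TPM in untreated NPC against 561, 563 and 529 TPM in untreated ESC. NPC with auxin lay between untreated NPC and ESC, without overlap. The difference was 2.63 ± 0.22 (adjusted p 1.16e-10), and the part beyond the untagged line was 1.63, which was called. Lin28a, an RNA-binding protein, was the member that rose in both pairs, by 3.32 with auxin and 2.13 untreated. In ESC it was lower with auxin (-0.47, adjusted p 0.000242), the single general pluripotency gene called there. Utf1 was also lower with auxin in every ESC library, a change that was not called. The difference of Utf1 includes that change in ESC. Untagged ESC averaged 32.4 ± 1.86 TPM of Lin28a with auxin and 43.4 ± 4.61 TPM untreated (SD, n = 3 each), also lower with auxin.

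Genes of the formative epiblast, the state between naive pluripotency and lineage choice, differed in direction as well as extent. Of 13 tested, 8 rose and 4 fell with auxin (median 0.89) and 3 rose and 6 fell untreated (median -0.42), and the difference was positive for 10 and negative for 1 (median 1.5). Dnmt3b, a de novo DNA methyltransferase, had 67.1, 61.7 and 51.9 TPM in NPC with auxin against 37.7, 33.5 and 34.8 TPM in ESC with auxin. Without auxin it had 23.2, 22.9 and 22.6 TPM in NPC against 42.1, 37.3 and 37 TPM in ESC. NPC were above ESC in every library with auxin and below in every library without. The changes were 0.75 ± 0.08 and -0.75 ± 0.08 and the difference was 1.5 ± 0.11 (adjusted p 2.71e-12).

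Pou3f1, a POU factor of the formative state that is also expressed in neural progenitors, had 23.3, 22.2 and 21.5 TPM in NPC with auxin against 4.44, 5.32 and 4.3 TPM in ESC with auxin, and 10.6, 9.02 and 6.97 TPM in untreated NPC against 8.73, 8.74 and 9.55 TPM in untreated ESC. The untreated stages overlapped, and the auxin stages did not. The difference of 2.18 ± 0.27 (adjusted p 1.76e-07) had a part in each stage, since auxin raised the gene in NPC (1.31, adjusted p 1.34e-06) and lowered it in ESC (-0.88, adjusted p 0.0325). Dnmt3l, the partner of the de novo methyltransferases, had 42.8, 36.7 and 37.3 TPM in NPC with auxin against 5.59, 11.1 and 6.51 TPM in ESC with auxin. Untreated NPC had 8.58 to 13.3 TPM against 11.7 to 13.9 TPM in untreated ESC, and the difference was 2.54 ± 0.36 (adjusted p 3.91e-06). In the untagged line the same difference of Dnmt3l was 1.13, not called (adjusted p 0.418). The part beyond the untagged line was 1.41 and was not called (adjusted p 0.148). Zic2, a zinc finger factor of the epiblast, fell by 1.54 with auxin and by 3.18 untreated.

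**Figure D3:**
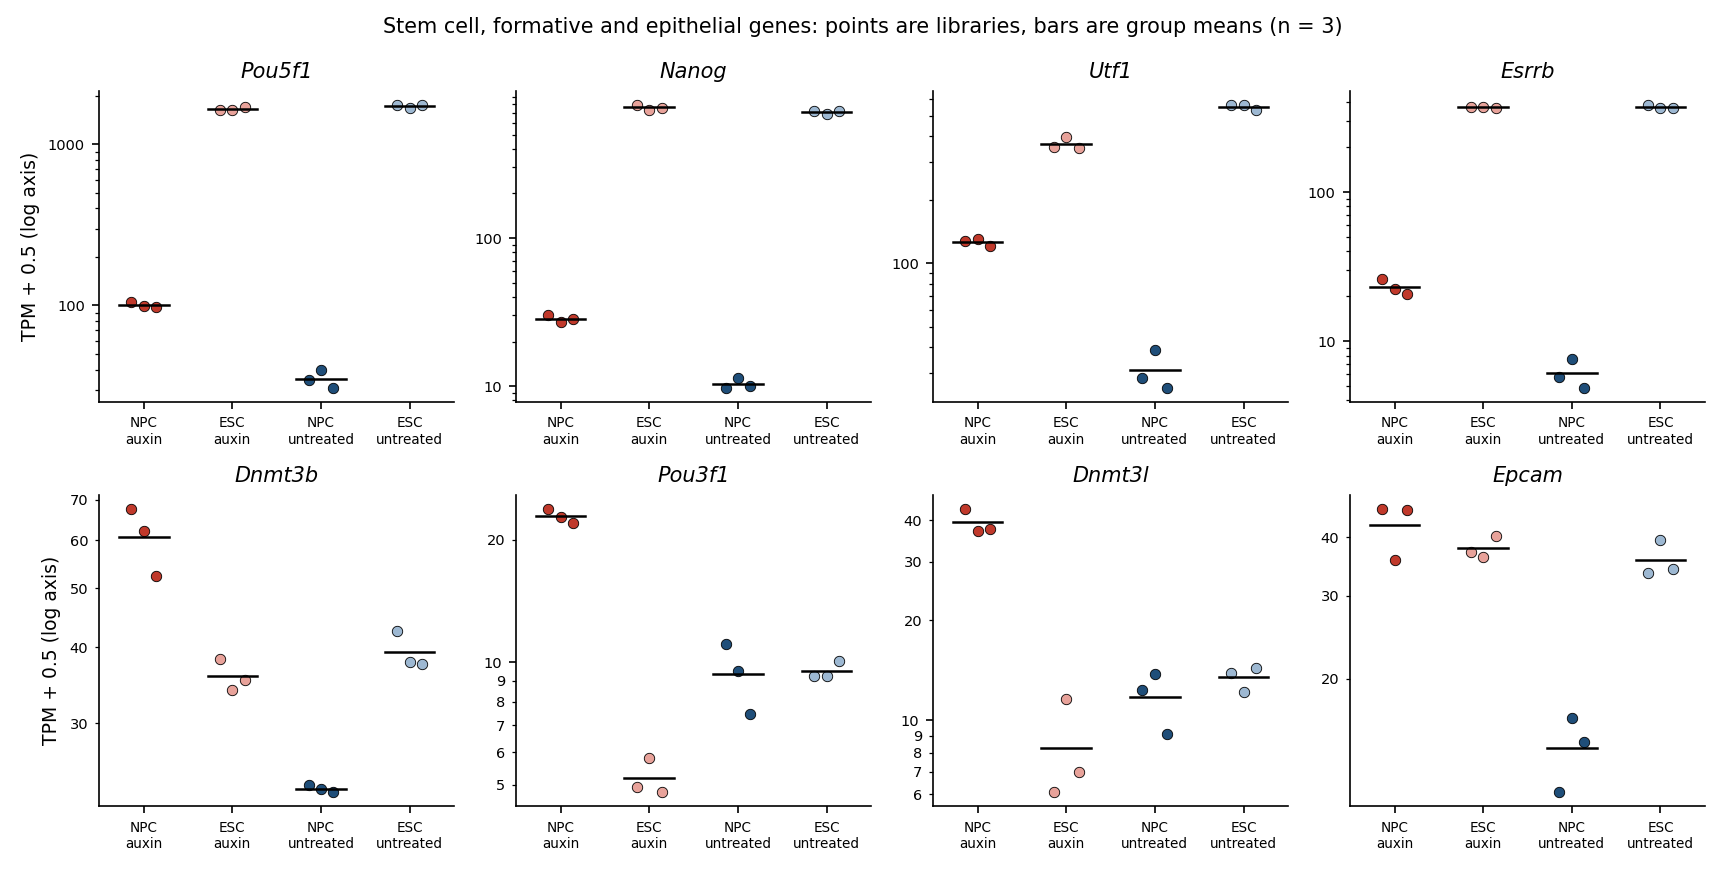
TPM + 0.5 on log axes of 8 stem cell, formative and epithelial genes in the 12 libraries of the JARID2 line; points are libraries and bars are group means (n = 3). NPC with auxin lie above untreated NPC in each panel, and for Dnmt3b, Pou3f1 and Dnmt3l also above ESC.

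Signals that act in this period were among the genes that differed. Of 22 TGF-beta and BMP genes the difference was positive for 9 and negative for 0 (median 0.61), and of 19 ERK and FGF genes for 8 and 0 (median 0.68). The part beyond the untagged line was positive for 3 TGF-beta and BMP genes (median 0.46) and for 5 ERK and FGF genes (median 0.14), and negative for 0 of either. The ligand gene Nodal, which maintains the early epiblast, had 6.57, 5.37 and 6.6 TPM in NPC with auxin against 104, 112 and 111 TPM in ESC with auxin, and 2.17, 1.75 and 2.79 TPM in untreated NPC against 111, 105 and 94.4 TPM in untreated ESC. Its difference was 1.22 ± 0.23 (adjusted p 0.000245). Id1, a BMP target that restrains bHLH factors, had 138, 160 and 160 TPM in NPC with auxin against 15.6, 14.3 and 14 TPM in ESC with auxin, and 92.1, 102 and 102 TPM in untreated NPC against 18, 19.9 and 21.9 TPM in untreated ESC, a difference of 1.05 ± 0.17 (adjusted p 2.51e-05). Both genes were higher in NPC with auxin than in any untreated NPC library, although Nodal fell and Id1 rose. In the untagged line the same difference was 0.73 for Nodal and 0.76 for Id1, not called in either (adjusted p 0.405 and 0.131). The part beyond the untagged line was 0.50 for Nodal and 0.30 for Id1 and was not called (adjusted p 0.528 and 0.64).

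Among FGF targets, Dusp5, a phosphatase that ERK signalling induces, had 108 TPM in each of the 3 NPC libraries with auxin against 12, 10.8 and 10.4 TPM in ESC with auxin. Untreated NPC had 36.5, 52 and 52.4 TPM against 13.6, 14.8 and 11.3 TPM in untreated ESC, and the difference was 1.46 ± 0.23 (adjusted p 1.48e-05). Etv4, which encodes an ETS factor, fell by 2.74 with auxin and by 4.74 untreated, a difference of 2.01 ± 0.16 (adjusted p 8.66e-12). Auxin raised Etv4 in NPC (1.40, adjusted p 3.76e-12) and lowered it in ESC (-0.61, adjusted p 0.00609). It was 1 of 3 ERK and FGF genes called lower in ESC (0.124% of all genes). In ESC of the untagged line Etv4 averaged 38.6 ± 3.95 TPM with auxin and 55.1 ± 0.372 TPM untreated (SD, n = 3 each), so it was lower with auxin there too.

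Epithelial genes made up a further group. Of 15 trophectoderm and epithelium genes the difference was positive for 7 and negative for 0 (median 0.86). Cdh1, E-cadherin, which stem cells lose as they become neural, had 96.2, 91.9 and 82.6 TPM in NPC with auxin against 363, 352 and 352 TPM in ESC with auxin, and 28.7, 38.8 and 28.7 TPM in untreated NPC against 356, 319 and 329 TPM in untreated ESC. The difference was 1.40 ± 0.13 (adjusted p 1.16e-09). Epcam, an epithelial adhesion molecule, had 45.4, 35.2 and 45.2 TPM in NPC with auxin against 36.7, 35.7 and 39.8 TPM in ESC with auxin, where the stages overlapped, and 11, 16 and 14.2 TPM in untreated NPC against 33.1, 39 and 33.7 TPM in untreated ESC, where they did not. Epcam fell untreated (-1.34) and not detectably with auxin (0.16, adjusted p 0.411), a difference of 1.5 ± 0.23 (adjusted p 1.25e-05). Markers of trophectoderm and epithelium summed to 571 to 682 TPM in NPC with auxin and to 303 to 388 TPM in untreated NPC, with the trophoblast factors Cdx2 and Elf5 under 1 TPM in both. In untreated NPC of the untagged line the sum was lower, at 90.9 to 99.9 TPM. The part of such cells in these results was not tested.

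Most progenitor genes rose with auxin. Of 22 neural progenitor genes 20 rose and 2 fell with auxin (median 4.22) and 21 rose and 1 fell untreated (median 4.75). The difference was negative for 10 and positive for 1 (median -0.41). The positive one was Pax6, with 28.1, 22.2 and 22.2 TPM in NPC with auxin against 15.6, 15 and 13.1 TPM in untreated NPC. Its difference was 0.83 ± 0.19 (adjusted p 0.00183). The part beyond the untagged line, 0.52, was not called (adjusted p 0.371). Sox1, an early neural factor, had 95.8, 90.5 and 90 TPM in NPC with auxin and at most 0.382 TPM in ESC with auxin, against 87.6, 84.6 and 79.6 TPM in untreated NPC and at most 1.04 TPM in untreated ESC. Its rises of 6.89 and 6.16 were not called different (0.73, adjusted p 0.0751). Nes, the intermediate filament of progenitors, had 202, 184 and 196 TPM in NPC with auxin against 11, 10.2 and 9.17 TPM in ESC with auxin, and 317, 300 and 283 TPM in untreated NPC against 9.49, 8.27 and 7.68 TPM in untreated ESC. It rose in both pairs and less with auxin, with a difference of -0.87 ± 0.10 (adjusted p 2.23e-08). Vim, another filament, had 2070, 2190 and 2180 TPM in NPC with auxin and 2900, 3100 and 3180 TPM in untreated NPC, a difference of -0.51 (adjusted p 1.34e-08).

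In the ventral neural tube list, 16 of 20 genes rose and 4 fell in each pair, with medians of 2.97 with auxin and 3.30 untreated. The difference was negative for 5 and positive for 1. Foxa1, a floor plate factor, had 12, 13.4 and 12.7 TPM in NPC with auxin against 0.741, 1.2 and 1.67 TPM in ESC with auxin, and 31.8, 35.1 and 34.5 TPM in untreated NPC against 1.02, 0.44 and 0.151 TPM in untreated ESC. Its difference was -2.14 ± 0.32 (adjusted p 8.63e-06). Olig2, a factor of motor neuron progenitors, was not induced in either pair: it had 14.5, 14 and 15.9 TPM in NPC with auxin against 25.8 to 30.6 TPM in ESC with auxin, and 21.4, 21.4 and 24.2 TPM in untreated NPC against 27.1 to 31.3 TPM in untreated ESC.

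Genes of the step from progenitor to neuron rose less with auxin. Of 28 neuron genes tested 24 rose with auxin (median 1.77) and 25 untreated (median 3.40), and the difference was negative for 25 and positive for 0 (median -1.49). Of 20 motor neuron genes it was negative for 14 and positive for 0 (median -0.96), and of 16 proneural and Notch genes for 9 and 0 (median -0.79). After median-of-ratios scaling the neuron count was still 25 to 0. Neuron markers summed to 556 to 620 TPM in NPC with auxin against 379 to 390 TPM in ESC with auxin, and to 1690 to 1990 TPM in untreated NPC against 355 to 374 TPM in untreated ESC.

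Nefl, the light neurofilament subunit, had 147, 147 and 162 TPM in NPC with auxin against 44, 48.1 and 41.9 TPM in ESC with auxin. Without auxin it had 659, 561 and 696 TPM in NPC against 42.5, 44.6 and 44.8 TPM in ESC. NPC exceeded ESC in both pairs and the NPC groups were far apart from each other. The rise was 1.76 ± 0.06 with auxin and 3.84 ± 0.06 untreated, a difference of -2.09 ± 0.09 (adjusted p 9.33e-19).

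Tubb3, the neuronal beta-tubulin, had 377, 444 and 445 TPM in NPC with auxin against 202, 209 and 214 TPM in ESC with auxin, and 1290, 1200 and 1450 TPM in untreated NPC against 185, 193 and 177 TPM in untreated ESC. Its difference was -1.81 ± 0.09 (adjusted p 1.56e-17). Ina, alpha-internexin, had 47.8, 52 and 57.2 TPM in NPC with auxin against 181, 162 and 167 TPM in untreated NPC, and a difference of -1.70 ± 0.10 (adjusted p 1.43e-14). Both stood above ESC in every NPC library. Stmn2, a microtubule regulator of axons, fell with auxin instead: it had 81.4, 73 and 85.3 TPM in NPC against 171, 176 and 169 TPM in ESC with auxin, and 182, 161 and 168 TPM in NPC against 174 TPM in each ESC library untreated. The fall with auxin was -1.10 ± 0.05, the untreated change was -0.03 (adjusted p 0.605), and the difference was -1.08 ± 0.07 (adjusted p 4.86e-14).

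Earlier steps of neurogenesis ran the same way. Dll3, a Notch ligand of newborn neurons, had 32.9, 40.4 and 39.4 TPM in NPC with auxin against 1.9, 1.37 and 1.24 TPM in ESC with auxin, and 93.6, 83.1 and 83.2 TPM in untreated NPC against 0.934, 0.176 and 1.21 TPM in untreated ESC. Its difference was -1.94 ± 0.31 (adjusted p 2.04e-05). Mfng, a glycosyltransferase that modifies Notch receptors, had 42.6, 42 and 44.4 TPM in NPC with auxin against 87.9, 90 and 87.1 TPM in untreated NPC, a difference of -1.18 ± 0.13 (adjusted p 3.48e-08). Scrt2, a repressor of newborn neurons, had 3.24, 4.66 and 5.26 TPM in NPC with auxin against 19, 20.5 and 21 TPM in untreated NPC, and at most 0.454 TPM in any ESC, a difference of -2.32 ± 0.27 (adjusted p 6.05e-08). The NPC groups did not overlap for any of these genes.

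Isl1, the LIM factor of motor neurons, had 32.1, 32.6 and 36.6 TPM in NPC with auxin against 1.4, 0.922 and 1.21 TPM in ESC with auxin, and 114, 93.4 and 102 TPM in untreated NPC against 1.38, 1.48 and 1.02 TPM in untreated ESC. The difference was -1.5 ± 0.22 (adjusted p 6.54e-06). Lhx4, a LIM factor of early motor neurons, had 2.81, 1.61 and 2.35 TPM in NPC with auxin against 13.7, 11.8 and 12.1 TPM in untreated NPC, and at most 0.177 TPM in any ESC, with a difference of -2.20 ± 0.19 (adjusted p 8.44e-11). Both genes rose with auxin, to levels below those of untreated NPC in every library. Lhx4 met the rule for switching on in the untreated pair alone. Isl1 met it in neither pair, because ESC libraries of both pairs were above 1 TPM. Slc18a3, the vesicular acetylcholine transporter, had 18.6, 19.3 and 16.1 TPM in NPC with auxin against 58.7, 56.9 and 51.7 TPM in untreated NPC, and the call of its difference (-1.67, adjusted p 1.09e-05) was lost with a pseudocount of 0.1 and on recovered reads.

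**Figure D4:**
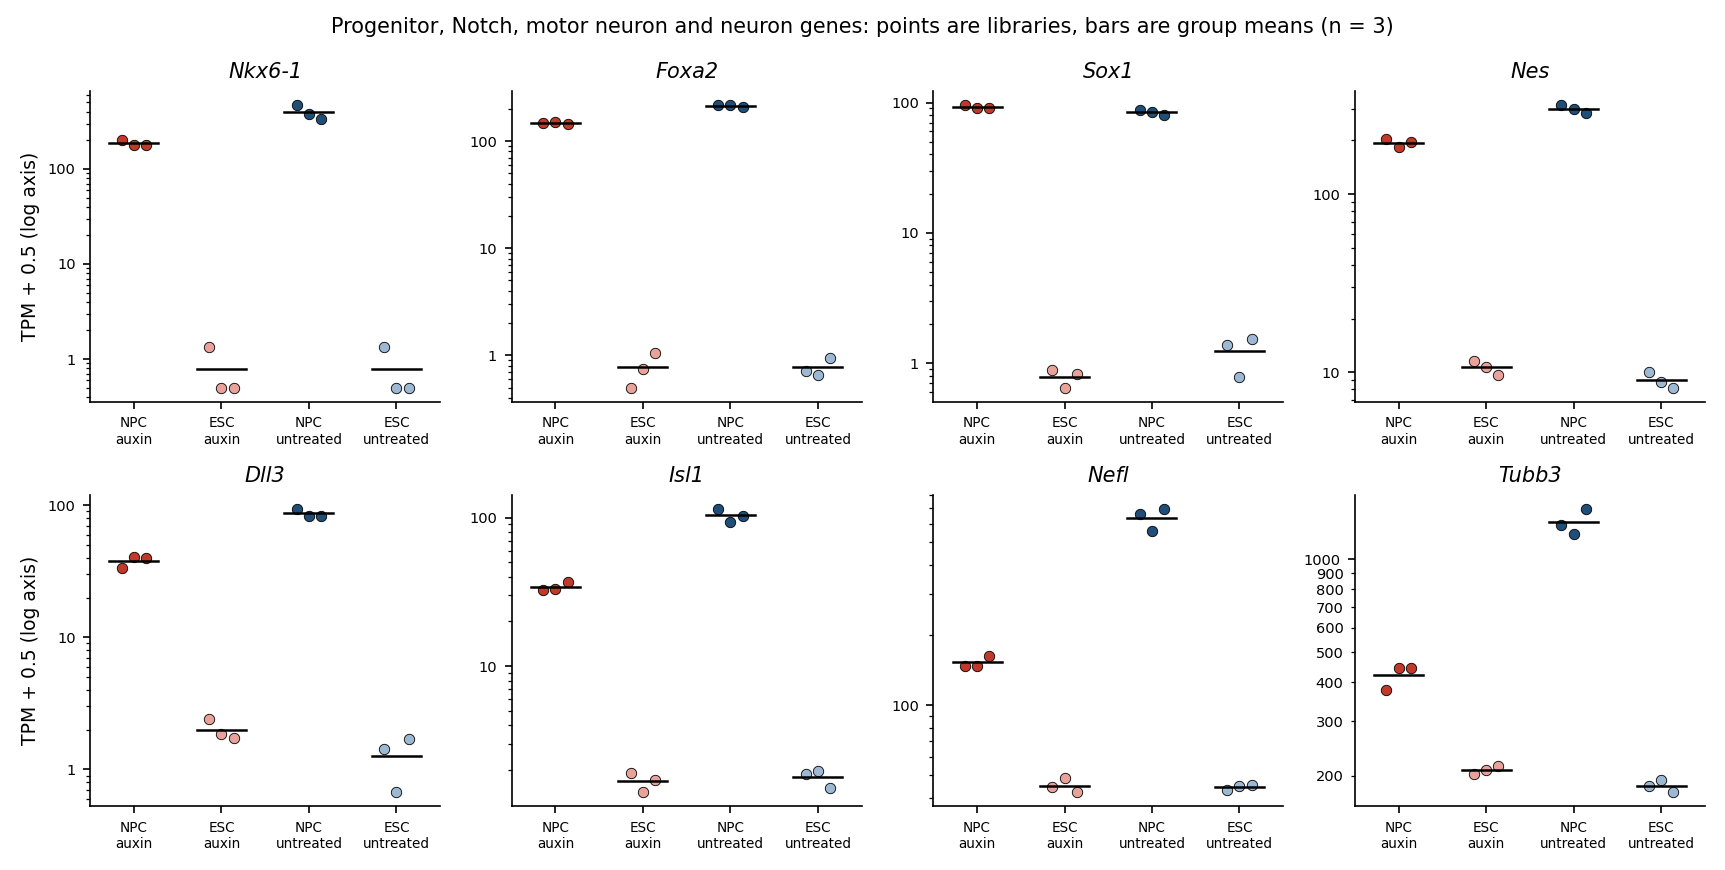
TPM + 0.5 on log axes of 8 progenitor, Notch, motor neuron and neuron genes in the 12 libraries of the JARID2 line; points are libraries and bars are group means (n = 3). Sox1 lay at 90 to 95.8 TPM in NPC with auxin and at 79.6 to 87.6 TPM in untreated NPC, while Dll3, Isl1, Nefl and Tubb3 in NPC with auxin lay between ESC and untreated NPC.

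Developmental regulators of other lineages, many of which PRC2 is known to hold silent, changed with stage in both pairs. Of 63 developmental regulators of other lineages tested, 34 rose and 16 fell with auxin and 33 rose and 16 fell untreated. The difference was positive for 4, against 5.89% of all genes, and negative for 0, against 9.16%. It passed an unadjusted p under 0.05 for 12 of the 63, and for 4850 of all 17760 genes. Of 24 tested Hox genes of groups 4 to 13 the difference was negative for 1 and positive for 0, with medians of 0.05 with auxin and 0.08 untreated. Hoxb4 had 15.4, 14.3 and 15.5 TPM in NPC with auxin against 37, 29.9 and 27 TPM in untreated NPC, and its difference of -0.53 was not called (adjusted p 0.0658). The 8 anterior Hox genes of groups 1 to 3 rose for 6 in each pair, and the difference was negative for 4 (median -0.72). Gbx2, a homeobox gene of stem cells and of the anterior hindbrain, was a positive case among the regulators: it had 25.2, 32 and 31.1 TPM in NPC with auxin against 11.9, 12.8 and 11.7 TPM in untreated NPC (1.23 ± 0.17, adjusted p 2.06e-06). Of 46 tested protocadherin genes, adhesion molecules of which each neuron expresses its own combination, 33 rose with auxin and 41 untreated, and the difference was negative for 10 (median -0.60).

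Other classes linked to early embryos gave smaller counts, beside 5.89% positive and 9.16% negative differences over all genes. Of 23 germ line genes the difference was positive for 5 and negative for 0 (median 0.45). Stra8, a retinoic acid target of meiosis, had 36.4, 32.9 and 38.4 TPM in NPC with auxin against 78.7, 81.9 and 82.4 TPM in ESC with auxin, and 12.1, 16.5 and 14.6 TPM in untreated NPC against 74.8, 75.9 and 86.1 TPM in untreated ESC, a difference of 1.25 ± 0.21 (adjusted p 4.63e-05). Genes of the 2-cell-like state fell in both pairs, for 12 of 14 tested, and the difference was called for 0 in limma. At an unadjusted p under 0.05 it passed for 4 of the 14, and for 4850 of all 17760 genes. Of 32 imprinted genes 28 rose with auxin and 27 untreated, and the difference was positive for 6 and negative for 4. Phlda2, a growth-restraining placental gene, had 146, 125 and 123 TPM in NPC with auxin against 50.7, 61.1 and 38.7 TPM in untreated NPC (1.13 ± 0.17, adjusted p 1.08e-05), whereas Gnas, a G-protein subunit, had 245, 242 and 236 TPM against 305, 295 and 319 TPM (-0.39 ± 0.07, adjusted p 8.03e-05).

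**Figure D5:**
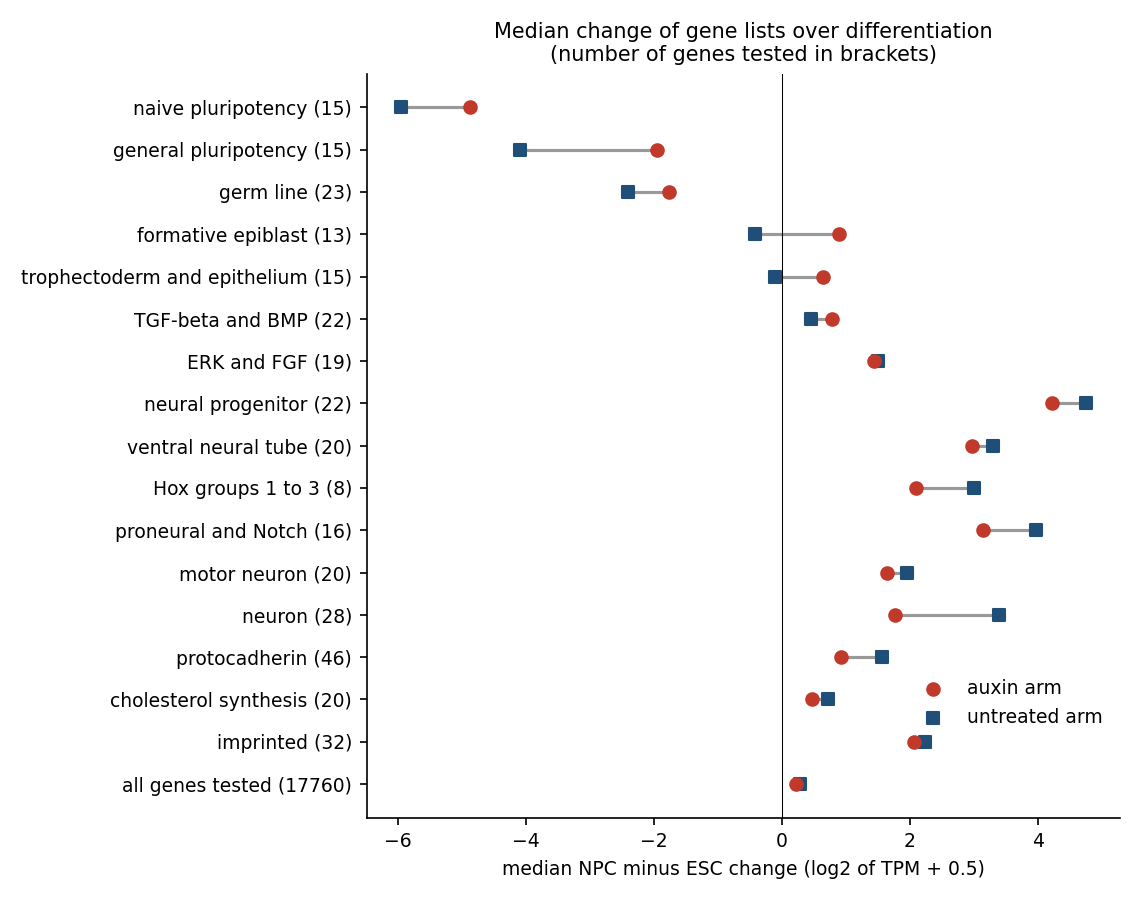
Median log2 fold change between NPC and ESC of the JARID2 line over the tested genes of each list, with auxin and untreated. For neuron genes the median was 1.77 with auxin and 3.40 untreated, and for general pluripotency genes -1.95 and -4.09.

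The Polycomb genes themselves changed with stage in both pairs. Of 12 PRC2 genes 5 rose and 6 fell with auxin, and the difference was positive for Rbbp7, Jarid2 and Phf19, a call that Rbbp7 lost in a fit to the 12 libraries alone. For Jarid2 it was 0.67 ± 0.10 (adjusted p 4.01e-06), from a fall of 0.74 below ESC with auxin against a fall of 1.42 untreated, and auxin did not detectably change its RNA in ESC (-0.02). Phf19, an accessory subunit that reads methylated histone H3, had 22.3, 16.6 and 15.6 TPM in NPC with auxin against 6.01, 8.55 and 5.95 TPM in untreated NPC (1.09 ± 0.22, adjusted p 0.00062). Its part beyond the untagged line was 0.95 and was not called (adjusted p 0.103). Suz12 had 46.9, 31.7 and 41 TPM against 36.6, 39.4 and 31.2 TPM in these groups, which overlapped, and its difference was not called (0.04). Of 21 PRC1 genes 1 had a positive and 4 a negative difference, and scaling turned this to 4 and 1. Before scaling, 5.89% of all genes were called positive and 9.16% negative.

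The part of the difference that went beyond the untagged line was called for 555 genes (3.12%), 275 (1.55%) positive and 280 (1.58%) negative. It was positive for 5 of 15 naive, 7 of 15 general pluripotency and 6 of 13 formative genes and negative for none of them (medians 1.17, 1.42 and 1.23, against -0.01 over all genes). It was negative for 15 of 28 neuron genes and positive for 0 (median -1.25). Other lists kept fewer of their calls. The part was negative for 5 of 20 motor neuron, 4 of 22 neural progenitor and 3 of 16 proneural and Notch genes. For 4 of 15 trophectoderm and epithelium and 3 of 23 germ line genes it was positive. In that order the list medians were -0.86, -0.29, -0.73, 1.04 and 0.39, against -0.96, -0.41, -0.79, 0.86 and 0.45 within the line. This contrast has larger standard errors (Isl1 0.32 against 0.22), so a call can be lost without a smaller difference. Beyond the untagged line 0 Hox genes of groups 1 to 3 were called in limma, against 4 within the line. For protocadherin genes these counts were 0 and 10. The counts were likewise 0 for cholesterol synthesis (9 within the line), proliferation (5) and muscle genes (2). At an unadjusted p under 0.05 this part passed for 4 of 8 Hox genes of groups 1 to 3 and 7 of 46 protocadherin genes. It passed for 3 of 20 cholesterol synthesis, 3 of 23 proliferation and 2 of 9 muscle genes, and for 2605 of all 17760 genes. The medians of these lists, in that order, were -0.48, -0.32, -0.13, 0.03 and 0.42, against -0.72, -0.6, -0.23, 0.09 and 0.8 within the line. For Pou5f1 the part beyond the untagged line was 1.75 ± 0.15 (adjusted p 3.59e-10), and for Nefl -1.74 ± 0.13 (adjusted p 2.08e-11). The values within the line were 1.60 and -2.09.

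Untreated NPC of the JARID2 line themselves differed from untagged NPC. Untreated NPC of the JARID2 line against untreated NPC of the untagged line, which share no library, differed for 4104 genes (23.1%), 2223 (12.5%) higher and 1881 (10.6%) lower. Of the neuron genes 0 were higher and 24 lower, and of the general pluripotency genes 14 were higher and 0 lower. Of the 15 trophectoderm and epithelium genes, 11 were higher and 2 lower. Nefl averaged 639 ± 69.9 TPM in untreated NPC of the JARID2 line and 1070 ± 37.5 TPM in those of the untagged line (SD, n = 3 each). Pou5f1 averaged 34.4 ± 4.38 TPM in NPC of the JARID2 line and 11.2 ± 1.34 TPM in NPC of the untagged line (SD, n = 3 each). Neuron markers summed to 1690 to 1990 TPM in untreated NPC of the JARID2 line and to 3190 to 3530 TPM in those of the untagged line. Line and degron tag cannot be told apart in this contrast, which was chosen after seeing the data.

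The other degron lines were set beside the JARID2 line. In the SUZ12 line it was called for 8729 genes (49.1%), with medians of -3.04 over neuron genes and 4.72 over general pluripotency genes. The JARID2 difference minus that of SUZ12 was called for 3728 genes (21%), and was positive (12.9% of all genes) for 21 of 28 neuron genes and negative (8.07%) for 10 of 15 general pluripotency genes and positive for 2. In the MTF2 line the difference was called for 527 genes (2.97%), with a median of -0.48 over neuron genes and 0.61 over general pluripotency genes. Minus that of MTF2, the JARID2 difference was called for 365 genes (2.06%) and was negative (1.33%) for 10 neuron genes and positive (0.726%) for 1 general pluripotency gene. Among single genes, Nefl differed between JARID2 and SUZ12 by 1.78 and between JARID2 and MTF2 by -1.49, with adjusted p of 1.73e-12 and 1.93e-09, and Pou5f1 by -3.96 (adjusted p 1.3e-20) and 0.38 (adjusted p 0.205). These contrasts of lines were also chosen after seeing the data.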

How the data were processed

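The authors deposited 1 TPM value per gene symbol and library, made from reads aligned with STAR 2.6.1d to mm10, per the submitters' processing notes. Which tool counted them, and against which annotation, is not given in the sources used here. TPM is a share of each library, so a rise of abundant genes lowers all others. The table held 35856 symbols, 27296 of them above 0. For 100% of these the values could be turned back into whole reads (tolerance 0.001), which sum to depths of 3.24 to 8.71 M reads. Genes near 1 TPM rest on few reads.

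The test was limma 3.58.1 (R 4.3.3) with moderated, intensity-trended and robust variances. It was run on log2(TPM + 0.5), for genes that reached 1 TPM in 2 or more libraries, and 1 model held all 16 groups. Fold changes are on that scale, which understates the change of low genes, and those of genes near 0 in 1 stage depend on the 0.5. Adjusted p are Benjamini-Hochberg over 17760 genes, two-sided. The series design states biological replicates, and replicates differed by more than counting error (chi-square per degree of freedom 1.318 to 2.705). On simulated data the difference recovered 83 of 100 genes changed by a log2 of 1 and 99 of 100 changed by 2, with 12 unchanged genes called. The changed genes were drawn from those averaging at least 5 TPM over all libraries. Noise was normal on the log scale with each gene's fitted spread. Recovery of lower genes was not tested.

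The members, gene lists and naming rule were chosen with earlier results of these data known. Named genes are the 10 largest rises and falls with auxin, 15 largest differences per direction, up to 4 called members of a list (otherwise 2), up to 10 genes per class switched in 1 pair, and Jarid2 with a few stage genes, among symbols other than unnamed models that averaged 5 TPM in at least 1 group. Alternatives are given in the closing section; reads recovered from TPM, tested with voom, and contrasts with other lines were added after seeing the data. Some genes that the rule names are left out.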

Additional observations from a re-analysis of the deposited data

Results flagged for a closer look

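The difference between the stage changes with and without auxin was larger or smaller in the JARID2 line than in the untagged line, by a test of that contrast in limma, for 555 genes. Among the named genes with the largest differences, the excess over the untagged line was positive for Nupr1 (2.77), Hesx1 (2.62), Spry4 (1.90), Pou3f1 (1.88), Utf1 (1.63), Slc7a7 (1.57) and Etv4 (1.33), on the log2 scale. It was negative for Sst (-2.22), Grm2 (-2.13), Ube2ql1 (-2.09), Scrt2 (-1.98), Lhx4 (-1.92), Scg2 (-1.82), Nefl (-1.74), Rhbdl3 (-1.65) and Foxa1 (-1.64). Nupr1, a stress-induced chromatin protein, was called at an adjusted p of 0.0465, and its difference within the line was lost in a fit to the 12 libraries of the line. Hesx1, a homeobox gene of the anterior epiblast and forebrain, had 4.07, 4.94 and 3.24 TPM in NPC with auxin against 1.33, 0.421 and 0 TPM in untreated NPC, and 39 to 53.6 TPM in ESC. Sst, the peptide somatostatin, had 6.89, 12.8 and 15.6 TPM in NPC with auxin against 35.2, 39.2 and 38.3 TPM in untreated NPC.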

How the results depend on the processing

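Counts of the stage changes kept within 1.5 times their value under each alternative run, and 2 of 172 named stage changes with auxin reversed: Ei24 (-0.13) and Mcm7 (-0.18), each after median-of-ratios scaling and with voom on recovered reads. The difference between the pairs was called for 1449 genes in a fit to the 12 libraries of the line (689 positive, 760 negative) and for 1631 with a replicate block in that fit (757 and 874), and voom gave 1377 positive and 802 negative calls. The replicate numbers did not pair the samples (same-number correlations -0.015 to 0.082, 8 of 18 best with their own number), so the block has no design behind it; with it the stage changes gave 11954 calls with auxin and 12713 untreated. Beyond the untagged line, negative calls fell to 164 with a pseudocount of 0.1 and to 155 with voom. Leaving out each replicate gave 11862 to 12388 calls with auxin (7451 to 7889 higher, 4144 to 4499 lower), 12574 to 13060 untreated (8017 to 8378, 4387 to 4682), 2154 to 2627 differences (888 to 1024, 1241 to 1720) and 437 to 593 beyond the untagged line (213 to 312, 206 to 304). With switch levels of 1 and 2 TPM, 682 genes came on with auxin, 848 untreated and 541 in both, and 297, 450 and 222 went off; with 0.5 and 10 TPM these were 85, 134 and 55, and 17, 53 and 15. With 100 genes chosen per direction the medians were 5.63 with auxin and 6.22 untreated for rises, and -4.3 and -5.35 for falls. Of 158 named differences, 26 lost their call in the fit to 12 libraries, 24 with the block, 27 with a pseudocount of 0.1, 24 with voom and 3 with scaling. The cause was not tested. Low genes are limited by depth.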

Other observations

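Of 20 sterol synthesis genes tested, 14 rose with auxin and 17 untreated, with medians of 0.47 and 0.72, and the difference was negative for 9 and positive for 0, where 9.16% of all genes were called negative. Hmgcs1, which makes the sterol precursor HMG-CoA, had 412, 409 and 450 TPM in NPC with auxin against 180, 175 and 177 TPM in ESC with auxin, and 510, 506 and 488 TPM in untreated NPC against 170, 164 and 179 TPM in untreated ESC. The difference was -0.30 ± 0.06 (adjusted p 0.000569), a change of small size with non-overlapping NPC groups. Beyond the untagged line it was -0.17 (adjusted p 0.348), and 0 of the 20 genes were called there in limma (median -0.13; 3 at an unadjusted p under 0.05). Proliferation genes showed 5 positive and 0 negative differences among 23, where 5.89% of all genes were called positive. Beyond the untagged line 0 were called (3 at an unadjusted p under 0.05). Of all 17760 genes, 2605 passed that unadjusted level beyond the untagged line. Ccnd1, cyclin D1, had 183, 180 and 186 TPM in NPC with auxin against 370, 336 and 357 TPM in untreated NPC (-0.91 ± 0.06, adjusted p 5.11e-14). Gadd45a, a growth arrest gene, had 106, 111 and 95.9 TPM against 53, 45.2 and 56.2 TPM (1.25 ± 0.13, adjusted p 1.03e-08). Beyond the untagged line Ccnd1 had -1.0 (adjusted p 2.89e-10), and Gadd45a had 0.63, which was not called (adjusted p 0.0564).

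Rarg, a retinoic acid receptor, had 33, 28.5 and 30.7 TPM in NPC with auxin against 160, 158 and 156 TPM in ESC with auxin, and 13.4, 11.4 and 11.1 TPM in untreated NPC against 189, 169 and 184 TPM in untreated ESC, a difference of 1.52 ± 0.15 (adjusted p 1.58e-09). Of 15 retinoic acid genes 6 had a positive and 1 a negative difference. For these and the lists below, the shares over all genes were 5.89% positive and 9.16% negative. Ngfr, a neurotrophin receptor of neural crest and of stem cells, ran the other way, with 19.5, 21.3 and 20.4 TPM in NPC with auxin against 67.4, 60.7 and 66.2 TPM in untreated NPC (-1.76 ± 0.11, adjusted p 1.19e-14). Apoe, a lipid carrier, had 223, 258 and 203 TPM in NPC with auxin against 76.6, 81 and 75.9 TPM in untreated NPC, and Slc2a3, a glucose transporter, had 326, 321 and 343 TPM against 106, 136 and 115 TPM, with differences of 1.58 ± 0.10 (adjusted p 8.6e-14) and 1.35 ± 0.13 (adjusted p 7.44e-10). In the remaining lists differences were called positive and negative for 2 and 2 of 20 mesoderm genes, 3 and 3 of 19 endoderm genes, 0 and 1 of 14 neural crest genes, 3 and 1 of 11 blood and endothelium genes, 2 and 0 of 9 muscle genes, 5 and 3 of 22 WNT genes, 4 and 3 of 21 glycolysis genes, 2 and 3 of 18 p53 genes, 5 and 3 of 10 DNA methylation genes, 2 and 4 of 13 cell-cycle inhibitors and D cyclins, 1 and 1 of 8 aryl hydrocarbon receptor genes and 0 and 1 of 7 glial genes.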
